A study of Homo sapiens with 2 samples.

Results

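The broad PHF8 peaks at gene boundaries were the 235 peaks of the APOC2 library chosen by length and position: they were at least 800 bp long, and from their midpoint the start or end of a RefSeq gene with a transcript (GRCh38.p14) was at most 1 kb away. They made up 4.92% of the 4777 boundary peaks of that library, which listed 8928 peaks in all. They were set against the 2265 boundary peaks shorter than 300 bp of the same library, here called short boundary peaks. The remaining 2277 boundary peaks were of intermediate length. The study profiled PHF8 by chromatin immunoprecipitation and sequencing (ChIP-seq) in RKO cells, a human line established from a colon carcinoma, and asked which PHF8 targets depend on APOC2. The vector group was 1 library from RKO cells transfected with vector, and the APOC2 group was 1 library from RKO cells given an APOC2 overexpression plasmid, without mention of how long either was carried; APOC2 is an apolipoprotein that activates lipoprotein lipase. Both libraries used the same antibody lot. With 1 library per condition there was no replicate error, so every difference below describes these libraries, and no p-value was computed. Intervals are at 95% (Wilson for shares, order-statistic for medians, exact binomial for ratios of fragments at 1 summit) and cover counting error only. Peaks are not replicates, and an overlap of intervals does not show that the values were equal.

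PHF8 is a histone demethylase of the Jumonji C family. Its PHD finger binds histone H3 trimethylated at lysine 4, a mark of active promoters and CpG islands, and its catalytic domain removes methyl groups from H3 lysine 9 and H4 lysine 20. It is also known to act at ribosomal RNA genes. A peak caller reports 1 interval for as long as the signal stays above threshold, so the length of a peak depends on how far the signal spreads and on how strong it is.

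The start regions of 6 genes at broad and short peaks are shown as examples of the starts beside the peaks; a region need not lie inside its peak, and that of CCDC107 lay wholly outside it. Each covers 250 bases before and 50 bases after a RefSeq gene start (GRCh38.p14), written 5′ to 3′ on the strand of the gene, with CpG dinucleotides in capitals. VAV2 (chr9:133992275-133992574, minus strand) and PSMG2 (chr18:12658488-12658787, plus strand) belonged to the longest members with a vector peak.
VAV2: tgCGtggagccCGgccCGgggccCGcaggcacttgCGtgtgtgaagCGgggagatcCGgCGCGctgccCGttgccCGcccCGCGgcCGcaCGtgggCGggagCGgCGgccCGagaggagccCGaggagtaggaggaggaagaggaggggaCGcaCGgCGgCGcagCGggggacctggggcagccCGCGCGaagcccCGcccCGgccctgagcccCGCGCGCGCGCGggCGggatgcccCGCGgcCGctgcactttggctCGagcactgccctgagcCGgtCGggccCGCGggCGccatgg
PSMG2: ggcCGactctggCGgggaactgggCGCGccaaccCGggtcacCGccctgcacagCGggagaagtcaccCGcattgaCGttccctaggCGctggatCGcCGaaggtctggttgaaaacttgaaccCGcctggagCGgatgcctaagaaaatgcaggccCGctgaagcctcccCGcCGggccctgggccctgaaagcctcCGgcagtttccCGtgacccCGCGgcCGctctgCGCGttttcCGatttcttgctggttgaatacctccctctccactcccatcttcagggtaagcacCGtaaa
SEC16A (chr9:136483734-136484033, minus strand) and CCDC40 (chr17:80036392-80036691, plus strand) belonged to the longest members without a vector peak.
SEC16A: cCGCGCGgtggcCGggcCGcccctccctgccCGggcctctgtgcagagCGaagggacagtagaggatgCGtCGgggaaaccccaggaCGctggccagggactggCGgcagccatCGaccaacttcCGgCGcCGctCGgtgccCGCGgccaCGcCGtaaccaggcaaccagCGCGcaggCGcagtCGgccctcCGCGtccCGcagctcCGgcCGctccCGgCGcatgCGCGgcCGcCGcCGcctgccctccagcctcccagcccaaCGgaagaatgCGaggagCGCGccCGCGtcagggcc
CCDC40: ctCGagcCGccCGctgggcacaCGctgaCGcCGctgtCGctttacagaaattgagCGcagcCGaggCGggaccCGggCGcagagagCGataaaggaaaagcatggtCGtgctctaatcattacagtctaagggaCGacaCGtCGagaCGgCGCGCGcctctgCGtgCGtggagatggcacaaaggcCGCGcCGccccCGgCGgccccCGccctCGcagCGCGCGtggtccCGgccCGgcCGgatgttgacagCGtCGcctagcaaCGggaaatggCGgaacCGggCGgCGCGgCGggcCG
CCDC107 (chr9:35658042-35658341, plus strand) and LRCH4 (chr7:100586080-100586379, minus strand) lay beside the short boundary peaks of highest pileup for which a start region was at hand. The peak beside CCDC107 also lay at the gene RMRP, and its summit was 404 bp upstream of the CCDC107 start.
CCDC107: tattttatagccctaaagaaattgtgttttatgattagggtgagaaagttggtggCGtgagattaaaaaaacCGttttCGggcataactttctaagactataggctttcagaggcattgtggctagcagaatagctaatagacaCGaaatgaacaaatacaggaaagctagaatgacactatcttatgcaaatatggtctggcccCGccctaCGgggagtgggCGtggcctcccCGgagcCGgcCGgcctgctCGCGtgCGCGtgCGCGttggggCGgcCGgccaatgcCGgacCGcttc
LRCH4: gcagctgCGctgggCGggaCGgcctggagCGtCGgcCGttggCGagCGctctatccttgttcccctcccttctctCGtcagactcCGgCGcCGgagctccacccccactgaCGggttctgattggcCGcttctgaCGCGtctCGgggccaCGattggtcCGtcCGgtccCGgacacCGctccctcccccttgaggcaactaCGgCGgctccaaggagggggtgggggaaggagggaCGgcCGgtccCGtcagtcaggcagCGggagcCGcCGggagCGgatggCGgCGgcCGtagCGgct
The number of CpG dinucleotides in these 300 bases was 46 for VAV2, 26 for PSMG2, 42 for SEC16A and 46 for CCDC40. It was 20 for CCDC107 and 35 for LRCH4, so the single regions of the broad and short classes overlapped in CpG content.

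The length of the broad peaks chose them, and the values of the same peaks in the APOC2 library are given as a description. Their median length was 930 bp, with quartiles of 849.5 and 1068.5 bp and a longest peak of 5863 bp. The pileup, the number of fragments covering the summit, had a median of 38 (lowest 14, quartiles 29.5 and 49, highest 301). The short boundary peaks had a median length of 246 bp and a median pileup of 26 (lowest 6, quartiles 21 and 32, highest 103). The local background under the summit had a median of 4.16 fragments in the broad and 4.36 in the short class. The fold enrichment over that background had medians of 7.97 and 4.84. Pileup thus tended to be higher in the long peaks, but the ranges overlapped widely. Just inside the threshold lay peaks of 800 bp at ZDHHC17, GSAP and TUBB3, of 802 bp at LINC00467 and of 807 bp at MAP4K3, with pileups of 24, 26, 30, 29 and 43. Just outside lay peaks of 797 bp at ST7 and at KIFC2, of 798 bp at RBPMS and at GBE1 and of 799 bp at RPL8, with pileups of 36, 39, 15, 30 and 60. Nothing in these values set the peaks on either side of 800 bp apart.

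**Figure D1:**
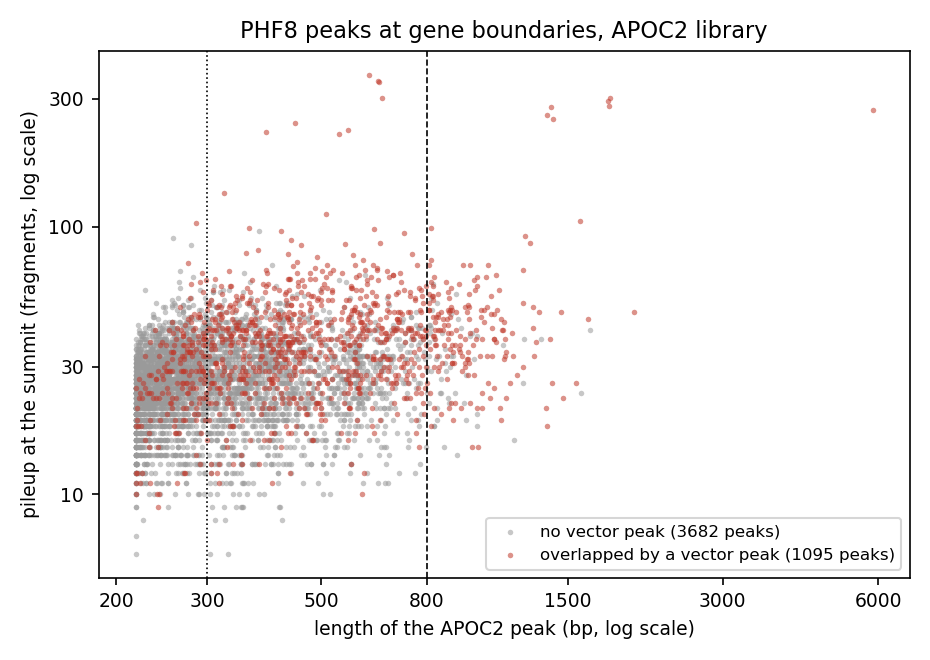
Each point is 1 of the 4777 boundary peaks of the APOC2 library, with its length in bp on the horizontal and its pileup in fragments on the vertical axis, both on log scales. Red points were overlapped by a vector peak, and the dashed and dotted lines mark 800 and 300 bp. The points to the right of 800 bp are mostly red, and 7 of them stand apart at pileups between 252 and 301.

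Long peaks were not a feature of gene boundaries alone. Outside the boundaries 163 of 4151 APOC2 peaks (3.93%, 3.38 to 4.56%) reached 800 bp, beside 4.92% (4.34 to 5.57%) at boundaries, and the intervals overlapped. In the vector library the order was the other way round, with 26 of 1152 boundary peaks (2.26%, 1.54 to 3.29%) and 143 of 2863 other peaks (4.99%, 4.26 to 5.85%).

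The members of highest pileup lay on genes that exist in many near-identical copies. A group of 6 members on chromosome 21 lay at ends of the ribosomal RNA genes RNA18SN1, RNA18SN2, RNA18SN3, RNA28SN1, RNA28SN2 and RNA28SN3, which encode the 18S and 28S RNAs of the ribosome. Reads from one copy can align to another, so the share of each copy is uncertain. The peaks at the 3 18S genes were 1795 to 1816 bp long and had APOC2 pileups of 282 to 301, beside vector pileups of 317 to 323 in peaks of 1643 to 1773 bp. Those at the 3 28S genes were 1367 to 1407 bp long, with APOC2 pileups of 252 to 279 and vector pileups of 265 to 291. The local background was also high there, between 67.4 and 103 fragments in the APOC2 library, so the fold enrichment was only 2.72 to 4.09. Both libraries therefore had long peaks of much the same extent at these genes, with vector peaks covering 91.5 to 97.6% of each APOC2 peak. The pileups given here were not scaled for depth, and the scaled ratios are given below.

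The longest member of all, 5863 bp at chr1:629075-634937, had its midpoint near the end of the microRNA gene MIR12136 and spanned 7 nuclear pseudogenes of mitochondrial genes, among them MTND1P23, MTND2P28 and MTCO1P12. Its pileup was 273 in the APOC2 and 257 in the vector library, where the peak was 5825 bp long. A shorter peak of 816 bp at chr11:10507894-10508709, in AMPD3 and MIR4485, overlapped MTRNR2L8, a nuclear copy related to a mitochondrial ribosomal RNA gene, and had pileups of 99 and 98.0 over a background of 1.32 and 1.64. Its fold enrichment of 43.0 was the highest of all members. Reads of such near-identical sequences cannot be placed in 1 copy with certainty. None of these 8 multi-copy members was missing from the vector library.

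Among the other members the longest was a peak of 2016 bp at VAV2, at chr9:133991472-133993487. Its pileup was 48 in the APOC2 library. The vector library had 2 peaks there, of 512 and 487 bp, with pileups of 31.7 and 33.6. CEBPD, which encodes a bZIP transcription factor, followed with 1657 bp (chr8:47737306-47738962) and a pileup of 41 and had no vector peak. At the shared start of RNF139, an endoplasmic reticulum ubiquitin ligase, and RNF139-DT the peak was 1646 bp long (chr8:124474151-124475796), with pileups of 45 and 36.6. PLCB4, a phospholipase C, had a peak of 1595 bp (chr20:9067829-9069423) with a pileup of 24 and no vector peak. Between SHARPIN, a subunit of the linear ubiquitin chain assembly complex, and MAF1, a repressor of RNA polymerase III, the peak was 1588 bp long (chr8:144103380-144104967) and the pileup was 105 with APOC2 and 70.3 with vector. This was the highest pileup of any member outside the multi-copy genes. Among these 5 peaks, the peaks at PLCB4 and at SHARPIN and MAF1 were of like length, with pileups of 24 and 105.

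The next members by length had a vector peak of part of their extent. The 1560 bp peak at PSMG2, a chaperone of proteasome assembly, lay at chr18:12657117-12658676 and had a pileup of 26 against 13.9 in a vector peak of 645 bp. The 1460 bp peak between TATDN1 and NDUFB9, a subunit of respiratory complex I (chr8:124538369-124539828), had 48 against 26.7. The 1360 bp peak at TEAD1, a transcription factor of the Hippo pathway (chr11:12673934-12675293), had 21 against 12.9. At TMEM51 a peak of 1401 bp with a pileup of 26 stood over a vector peak of only 224 bp with a pileup of 17.8. HNF4G, a nuclear receptor gene (chr8:75407197-75408567), was different: its peak was 1371 bp long with APOC2 and 1310 bp with vector, and the pileup of 18 with APOC2 was below the 23.8 with vector. These pileups were not scaled for depth, and the scaled ratio at HNF4G is given below with its counting error. SEC16A, a scaffold of endoplasmic reticulum exit sites, had a peak of 1332 bp with a pileup of 38 and no vector peak.

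To see whether PHF8 was also detected at these places without APOC2 overexpression, the members were intersected with the vector peaks, which the selection had not used. Of the 235 broad peaks, 178 (75.7%, 69.9 to 80.8%) shared at least 1 bp with a vector peak. Of the 2265 short boundary peaks, 184 (8.12%, 7.07 to 9.32%) had one. The background over all boundary peaks was 22.9%. A longer interval has more room to meet a vector peak, so the choice by length favoured a higher share in the broad class. Where at least 50% of the peak had to be covered, the shares were 41.7% and 7.99%, beside a background of 18.2% over all boundary peaks. The share grew with every step of length but 1, from 3.97% (49 of 1235) below 250 bp over 36.2% (125 of 345) from 500 to under 600 bp to 88.8% (71 of 80) at 1000 bp or more. From 400 to under 500 bp it was also 36.2%.

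**Figure D2:**
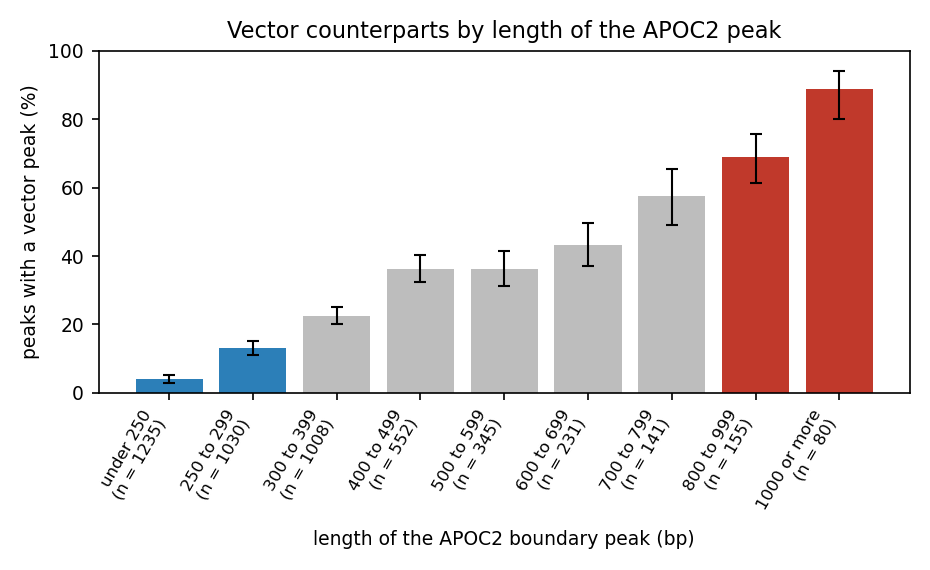
Bars give the percentage of APOC2 boundary peaks overlapped by a vector peak in 9 classes of length in bp, with the number of peaks in each, and whiskers are 95% Wilson intervals. Blue marks the short and red the broad classes, and the share goes from 3.97% in the shortest to 88.8% in the longest class.

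Because pileup was higher in long peaks, the shares were also compared at like pileup. At 30 to 39 fragments, 50 of 67 broad peaks (74.6%, 63.1 to 83.5%) and 48 of 602 short peaks (7.97%, 6.07 to 10.4%) had a vector peak. At 40 to 49 fragments the counts were 47 of 58 (81.0%, 69.1 to 89.1%) and 19 of 124 (15.3%, 10.0 to 22.7%). At 50 fragments or more they were 47 of 51 (92.2%) and 9 of 35 (25.7%). In each of the 5 bands the intervals of the broad and the short class were apart. At 50 fragments or more, 162 of 207 peaks of intermediate length (78.3%, 72.2 to 83.3%) also had a vector peak. That interval overlapped the one of the broad class (81.5 to 96.9%). In the lower bands the intervals of the broad and the intermediate class were apart. The local background was not alike within the bands: at 30 to 39 fragments its median was 3.33 in the broad and 5.83 in the short class, and the part of this difference in the result was not tested.

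**Figure D3:**
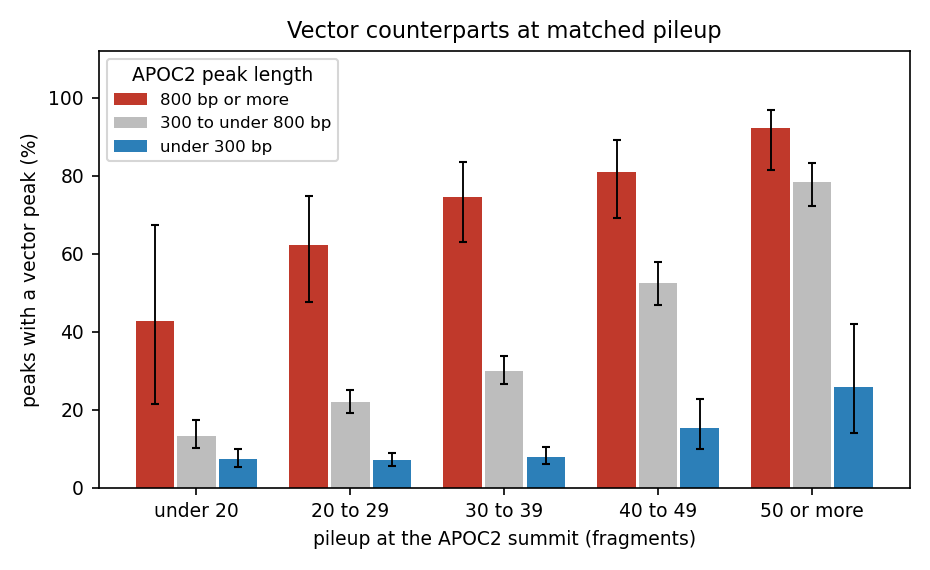
Bars give the percentage of APOC2 boundary peaks with a vector peak in 5 bands of APOC2 pileup in fragments, for peaks of 800 bp or more (red), 300 to under 800 bp (grey) and under 300 bp (blue), with 95% Wilson intervals. The red bars stand above the blue bars in each band, for example 74.6% against 7.97% at 30 to 39 fragments.

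The vector peaks were shorter than the members above them. Over the 178 members with a vector peak, such peaks covered a median of 54.7% of the APOC2 peak (48.7 to 61.1%, range 16 to 100%), or 553 bases (489 to 598). The summed length of the vector peaks under a member had a median of 564.5 bp. At short boundary peaks with a partner the vector peak covered a median of 88.4% (86.6 to 90.3%) and was 248 bp long. No vector peak under a boundary peak was shorter than 224 bp, so the higher coverage at short peaks was in part fixed by the choice by length. The APOC2 summit of a member lay inside a vector peak in 153 of the 178 (86.0%, 80.1 to 90.3%), beside a background of 95.4% (94.0 to 96.5%) of all 1095 boundary peaks with a vector peak. Of the short peaks with one, it did so in 182 of 184 (98.9%). The share was thus lower in the members than over all boundary peaks, which was also in part fixed by the choice by length. The summits lay at a median distance of 44.5 bp (35 to 57) from the nearest vector summit and at most 711 bp away. A long peak selected in 1 library will on average be shorter in another, so the reverse selection was made as well. All 26 vector boundary peaks of at least 800 bp were overlapped by an APOC2 peak. The APOC2 peak was the longer one in 22 of them, and the median length was 951.5 bp with vector and 1073.5 bp with APOC2. Vector boundary peaks of intermediate and short length, classed by the same limits, were compared in the same way. Where they had an APOC2 peak, that peak was the longer one in 404 of 483 intermediate and 571 of 614 short cases. A longer APOC2 peak was thus not particular to the long vector peaks.

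A vector peak of at least 800 bp lay under 23 of the 235 members, beside a background of 0.586% of all boundary peaks. The 8 multi-copy members were among them. Of the other 15, 9 lay on chromosome 8 and 2 on chromosome 9. Besides HNF4G they included FZD6, which encodes a receptor of the Frizzled family for WNT ligands, with 1305 bp over a vector peak of 1070 bp, and INO80D, a subunit of the INO80 chromatin remodeller, with 1270 bp over 956 bp. At CIBAR1 the APOC2 peak of 1068 bp was shorter than the vector peak of 1133 bp. These genes were named after their values had been seen.

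**Figure D4:**
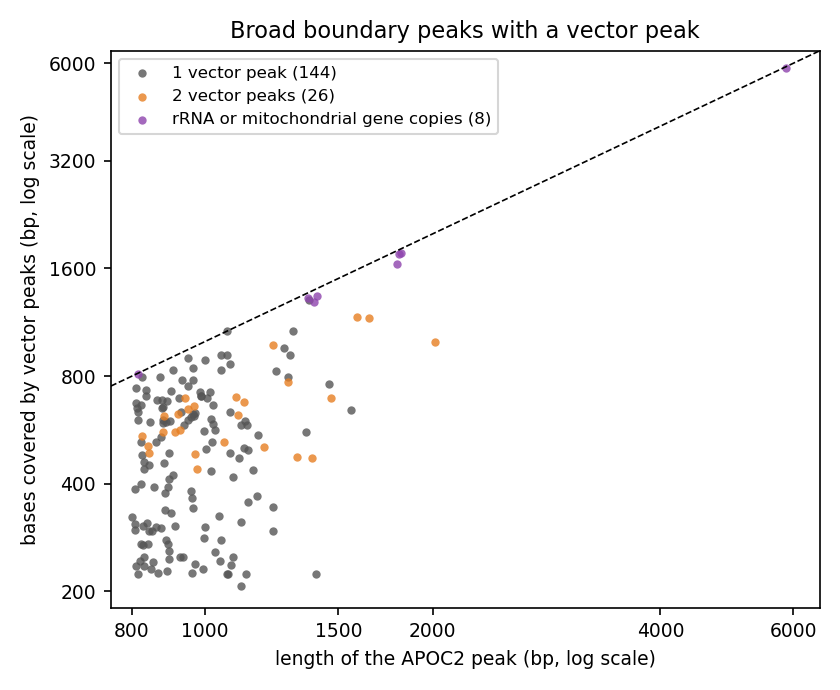
Each point is 1 of the 178 broad peaks with a vector peak, with the length of the APOC2 peak in bp on the horizontal and the bases covered by vector peaks on the vertical axis, both on log scales, and a dashed line of equality. Purple points are the 8 members at rRNA or mitochondrial gene copies, close to the line, and orange points are the 26 members above 2 vector peaks; most other points lie below the line, at a median of 54.7% of the length.

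In 26 members a single APOC2 peak spanned 2 separate vector peaks. That was 11.1% of the members (7.66 to 15.7%), beside a background of 0.628% of all boundary peaks; a longer interval has more room for 2 peaks, so the count was in part fixed by the choice of members. The gap between the vector peaks had a median of 229.5 bp (188 to 259) and ranged from 153 bp at BOP1 and HSF1 to 466 bp at CCSER1. At VAV2 the gap was 363 bp and at SHARPIN and MAF1 it was 247 bp. The APOC2 summit lay in the gap at 2 of the 26 members and inside a vector peak at the other 24. Members of this kind also lay at SMAD4, the common mediator of TGF-beta signalling, at WDR5, a core subunit of histone H3 lysine 4 methyltransferase complexes, and at SMURF1, a ubiquitin ligase of the same TGF-beta family pathways. The genes of this paragraph were named after their values had been seen.

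The heights of the summits were compared after scaling for depth. The spacing of the deposited values gave an APOC2 library of 0.824 times the depth of the vector library, if both had been called against the same control, and a ratio of pileups scaled in this way is called the depth-scaled ratio. Over the 178 members with a vector peak the median log2 depth-scaled ratio, APOC2 over vector, was 0.62 (0.56 to 0.69, range -0.15 to 1.46). It was above 0 in 173 of them (97.2%, 93.6 to 98.8%), beside a background of 92.2% over all 1095 boundary peaks with a vector peak. A ratio of at least 1.5-fold was reached by 96 members (53.9%, 46.6 to 61.1%), against a background of 46.8%, and the interval included that background. Peaks of 300 to under 800 bp had a median of 0.61 (0.56 to 0.63), and the intervals of the broad and the intermediate class overlapped. The short boundary peaks had a lower median of 0.30 (0.24 to 0.38). Among short peaks with a pileup of at least 30 and under 50 the median was higher, as given in the last section. The part of pileup in the contrast of broad and short peaks was not tested. Without scaling for depth the medians of the log2 pileup ratio were 0.35 in the broad and 0.03 in the short class. Since both classes were selected in the APOC2 library, a high ratio for long and a low ratio for short peaks was favoured by the selection. In the reverse selection, the 26 long vector boundary peaks had a median of 0.40 (0.20 to 0.66). The 8 multi-copy peaks, with values of 0.08 to 0.35, were among these 26. They were a larger part of the 26 than of the 178 members, and their part in the lower median was not tested.

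Counting error at single summits was large. The exact 95% interval of the depth-scaled ratio lay wholly above 1 at 67 of the 178 members (37.6%, 30.9 to 44.9%), beside a background of 32.1%, and wholly below 1 at none. The highest ratio was at ITGA2, the integrin alpha 2 subunit (chr5:52988931-52989893), with a pileup of 34 against 14.8 and a ratio of 2.75 (1.46 to 5.44). At TONSL, a protein of replication fork repair (chr8:144444150-144445035), the pileups were 49 and 21.8 and the ratio was 2.70 (1.60 to 4.70). SGMS2, a sphingomyelin synthase, had 32 against 15.8, a ratio of 2.43 (1.29 to 4.74). HGH1 had 72 against 35.6, a ratio of 2.43 (1.61 to 3.73), and DPY19L4 had 92 against 46.5, a ratio of 2.38 (1.65 to 3.45). ADGRA3, GLG1, DCLK2, TSPAN9 and PSMG2 followed, with ratios between 2.25 and 2.35. The intervals of these 10 members overlapped each other, so their order was not resolved.

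At the other end 5 members had a ratio below 1. They lay at TLCD4-RWDD3 (0.899, 0.478 to 1.66), HNF4G (0.910, 0.466 to 1.75), the lamin-processing protease gene ZMPSTE24 (0.926, 0.551 to 1.54), ZNF571 (0.958, 0.453 to 1.99) and ZC2HC1A (0.965, 0.582 to 1.59). The pileups at ZMPSTE24 were 29 with APOC2 and 37.6 with vector. Each of these intervals included 1, so none of the 5 was lower with APOC2 beyond counting error. The 6 ribosomal RNA peaks had ratios of 1.06 to 1.17, with a lowest bound of 0.900 and a highest of 1.40, and here too each interval included 1.

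The 57 members without a vector peak had a median length of 868 bp (839 to 908) and a median pileup of 32 (27 to 37). Those with a vector peak had medians of 960.5 bp (926 to 987) and 41 (38 to 44). The highest pileups without a vector peak were 61 at ZKSCAN2, a zinc finger gene with a peak of 824 bp (chr16:25257554-25258377), and 56 between SSNA1 and ANAPC2, a subunit of the anaphase-promoting complex, with a peak of 911 bp. SPIN1, which encodes a reader of histone H3 trimethylated at lysine 4, had 54 in a peak of 817 bp. The pseudogene ZNRF2P1 had 52, LARP1B 49, FAM168B 47, MPPE1 45, the kinase gene MAP4K3 and the phosphatase gene DUSP3 43 each, and the WNT co-receptor gene LRP6 42. The peaks at these 10 sites were 807 to 931 bp long. The table lists called peaks only, so signal below its threshold in the vector library cannot be seen.

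The members were unevenly spread over the chromosomes. Chromosome 8 held 66 and chromosome 9 held 35 of them, together 101 (43.0%, 36.8 to 49.4%), beside a background of 13.5% of all boundary peaks and 7.46% (6.45 to 8.62%) of the short ones. On chromosome 8, 21.0% (16.9 to 25.9%) of the 314 boundary peaks were broad, and on chromosome 9, 10.6% (7.75 to 14.4%) of 329. On the other chromosomes with boundary peaks the share lay between 0 and 8.86%, the highest being chromosome 21 with 7 members, of which 6 were the ribosomal RNA peaks. No member lay on chromosomes 13, 15, X or Y. Along chromosome 8 the share was 4.35% (3 of 69) below 50 Mb, 22.3% (23 of 103) from 50 to 100 Mb, 26.1% (18 of 69) from 100 to 140 Mb and 30.1% (22 of 73) beyond. The stretch beyond 140 Mb held CHRAC1, a histone-fold subunit of the CHRAC chromatin remodeller, with 1231 bp and pileups of 69 with APOC2 and 43.5 with vector, and the peak between BOP1, a ribosome biogenesis factor, and HSF1, a heat shock transcription factor, with 941 bp and pileups of 72 and 51.5. It also held SHARPIN and MAF1, HGH1, TONSL, the helicase gene RECQL4 (840 bp, pileups 47 and 41.6), ZNF517, COMMD5 and ZNF16. These genes were picked after their values had been seen, as examples of the stretch. On chromosome 9 it was 13.5% (22 of 163) beyond 120 Mb and 6.25 to 9.76% before.

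**Figure D5:**
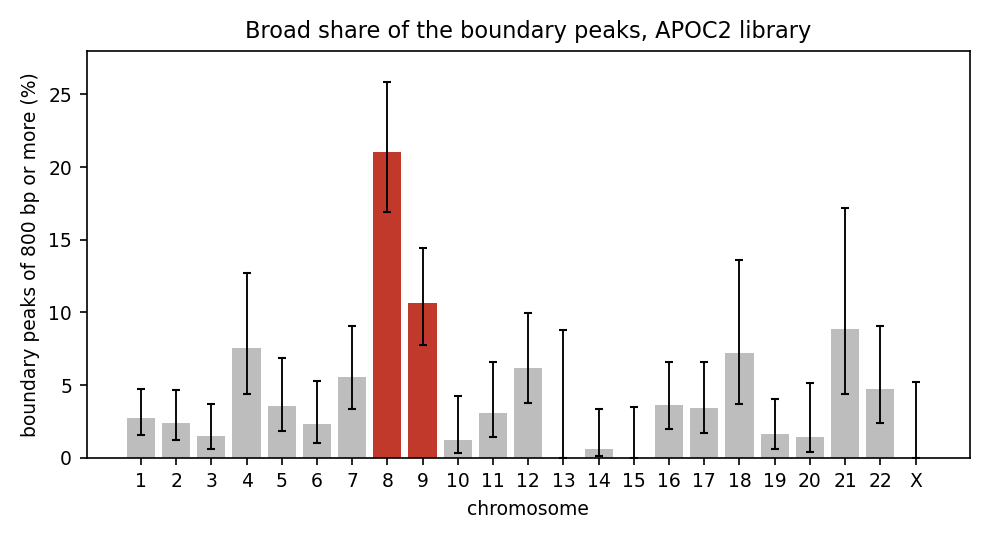
Bars give the percentage of the APOC2 boundary peaks of each chromosome that were 800 bp or longer, with 95% Wilson intervals; chromosomes 8 and 9 are red, and chromosome Y, with 1 boundary peak, is left out. Chromosome 8 stands at 21.0% and chromosome 9 at 10.6%, and no other chromosome is above 8.86%.

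Other values moved with this distribution. Boundary peaks on chromosomes 8 and 9 had a median pileup of 34 (33 to 36) and those elsewhere 27 (27 to 28), while the medians of the local background were 4.36 and 4.26. The members on chromosomes 8 and 9 had a median pileup of 45 (40 to 48) against 33 (31 to 37), at the same median length of 930 and 928.5 bp. Of them 85.1% (76.9 to 90.8%) had a vector peak, against 68.7% (60.4 to 75.9%) of the members elsewhere, and their median log2 depth-scaled ratio was 0.62 against 0.60. Without these chromosomes 134 members were left, and their share with a vector peak was still above that of the short peaks there, 7.54% (6.48 to 8.75%). The part of the higher pileup on these chromosomes in the result was not tested.

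In all, 345 RefSeq genes had an end within 1 kb of a member midpoint, or 5.58% of the 6186 genes with a boundary peak in the APOC2 library. Of them 260 (75.4%) were protein-coding and 69 were long noncoding RNA genes, and of all genes with a boundary peak 77.2% were protein-coding. A member lay at 2 or more genes in 42.6% of cases (36.4 to 48.9%) and a short peak in 40.4% (38.4 to 42.5%), with a background of 40.9%. The classes thus did not differ in gene density beyond counting error.

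The gene lists drawn up for pathways and complexes had few members. The ZNF zinc finger genes had a boundary peak at 154 of 509 genes, and the peak was broad at 9 (5.84%), close to the background of 5.58%. Those 9 were ZNF16, ZNF398, ZNF425, ZNF517, ZNF571, ZNF623, ZNF641, ZNF707 and ZNF786, with pileups of 15 to 57; ZNF398 and ZNF425 shared 1 peak of 1045 bp, and 4 of the 9 lay on chromosome 8. Of 40 cytosolic ribosomal protein genes with a boundary peak, RPL30 (930 bp, pileup 34 against 27.7 with vector) and RPL35 (822 bp, 55 against 37.6) had a broad one. Of 11 histone demethylase genes with a boundary peak, 1 did: KDM5A, an eraser of H3 lysine 4 methylation, with 1109 bp and pileups of 21 and 22.8. These pileups were not scaled for depth, and the log2 depth-scaled ratio at KDM5A was 0.15. Of 9 genes of the MYC and WNT list with a boundary peak, LRP6 alone had a broad one. No broad peak lay at the 8 immediate-early, 9 histone methyltransferase, 2 replication-dependent histone, 9 E2F and cell cycle, 6 heat shock, 12 splicing factor, 11 small nucleolar RNA host or 7 cholesterol and apolipoprotein genes that had a boundary peak. HSF1 and WDR5, named above, were on none of the lists. With counts this small against a background of 5.58%, no list stood out. Of the markers of colon epithelium 3 of 11 had a boundary peak and of the mesenchymal markers 0 of 6, and none was broad; PHF8 peaks do not measure whether a gene is expressed, so they do not check the cell type.

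Start sites with a strand were used for the 169 members off chromosome 8. Of these, 141 (83.4%, 77.1 to 88.3%) had a start within 1 kb of the midpoint, and so had 84.4% (82.8 to 85.9%) of the short peaks. Starts on both strands that pointed away from each other were found at 38 of the 141 (27%, 20.3 to 34.8%) and at 29.0% (26.9 to 31.1%) of the short peaks. The summit lay downstream of the nearest start in 103 of 141 broad peaks (73.0%, 65.2 to 79.7%) and in 80.3% (78.5 to 82.1%) of short peaks, and the intervals overlapped. The median position was 125 bp (105 to 136) downstream in the broad and 126 bp (122 to 130) in the short class. The medians were alike, but the lower quartile was -37 bp, upstream of the start, in the broad class and 74 bp in the short class. The upper quartiles were 187 and 171 bp. Among the members the summit was 714 bp upstream of the nearest start at VAV2 and 948 bp upstream at CCDC40. Members with a vector peak had divergent starts in 31 of 100 (22.8 to 40.6%) and a downstream summit in 78 of 100 (68.9 to 85.0%). Those without one had divergent starts in 7 of 41 (8.53 to 31.3%) and a downstream summit in 25 of 41 (45.7 to 74.3%), and both pairs of intervals overlapped.

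The sequence around the starts was the one property outside the peak tables. Over 200 genes at broad peaks the 300 bases had a median GC content of 71.3% (69.7 to 72.7%), against 67.7% (67.0 to 68.0%) over 2357 genes at short peaks and 58.7% over all 35116 start regions. The median number of CpG dinucleotides was 33.5 (31 to 35) against 29 (29 to 30), beside 14 over all regions. The ratio of observed to expected CpG was 0.90 (0.86 to 0.93) and 0.88 (0.88 to 0.89), a difference within the intervals, and 0.58 over all regions. A ratio of at least 0.6 was reached by 95.0% (91.0 to 97.3%) of the regions at broad and 94.5% (93.5 to 95.3%) at short peaks, against 48.9% of all. In both classes CpG-rich starts prevailed, and those of the broad class had somewhat more GC. Genes at intermediate peaks lay between them, with medians of 68.7% GC (68.3 to 69.3%) and 31 CpG dinucleotides (30 to 31). Chromosome 8, which held 66 of the 235 members, was left out of these regions. Within the broad class, the CpG ratio was 0.94 (0.89 to 0.99) over 53 genes at members without a vector peak and 0.88 (0.85 to 0.92) over 147 genes at members with one, and the intervals overlapped.

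Short motifs were counted in the same 300 bases on either strand. The GC box GGGCGG, bound by SP1 and KLF factors, was found in 87.5% (82.2 to 91.4%) of the regions at broad peaks, 79.8% (78.2 to 81.4%) at short peaks and 45.0% of all. The CCAAT box, searched as CCAAT, was found in 24.5% (19.1 to 30.9%), 37.8% (35.9 to 39.8%) and 34.6%. Of the 7 motifs searched these were the ones whose intervals did not overlap between the classes, with GGGCGG higher and CCAAT lower at broad peaks. The core CCGGAAG of ETS factors was found in 21.0% and 22.7%, CACGTG, the E-box, in 6.0% and 8.95%, and GCATGCG, the core of the NRF1 site, in 5.5% and 9.42%. TATAAA, the TATA box, was found in 2.0% and 2.76%, and AAGATGG, the core of the YY1 site, in 7.5% and 8.32%. For these 5 motifs the intervals of the broad and short classes overlapped. The GC content of a region moves with the chance of finding GGGCGG or CCAAT, and its part in these differences was not tested. Of the printed regions, those of VAV2, PSMG2, SEC16A and CCDC40 held GGGCGG and no CCAAT, and those of CCDC107 and LRCH4 held both.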

How the data were processed

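Per the submitters' processing notes, Bowtie2 2.2.9, MACS2 2.0, HOMER and the build hg38 were used; control library, thresholds and duplicate handling are not given in the sources used here. Per the file headers, the deposited peak tables gave pileup (a signal in fragments), fold enrichment and lengths. The local background was derived from pileup and fold enrichment. Fold enrichment was taken as the ratio of pileup to local background, with the same small count added to both. A pair of unnamed deposited columns held -log10 p and -log10 q, judged from place and values. Peaks had been called per library. Read totals were unknown; 99.8% of vector pileups were multiples of 0.98953, all APOC2 pileups were whole, and 64.3% of APOC2 backgrounds above 1.5 lay on steps of 0.833, searched for between 0.7 and 1.01, which gave the relative depth.

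Boundaries came from 43039 RefSeq genes with a transcript (GRCh38.p14). Overlap needed 1 bp. Where several vector peaks lay under a member, the highest pileup was used. Wilson, order-statistic and exact binomial 95% intervals were computed with scipy 1.17.1; the code was tested on simulated data. ChIP fragments are not independent molecules, so intervals cover counting error only. Start regions came from a RefSeq table; sequences on chromosome 8 were not used here. Named peaks were the 20 longest, the 10 of highest pileup, the 10 highest and 10 lowest ratios, 10 without a vector peak, and those at list genes or at the threshold. Members, lists and rules were chosen with earlier results of these data known.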

Additional observations from a re-analysis of the deposited data

How the results depend on the processing

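No paired analysis was possible because each condition had 1 library. Leaving out a replicate was not possible for the same reason. Of the recomputed values, 63 lay inside the 95% interval of the reported value (numbers: within 1.5 times) and 30 did not. None of the log2 ratios changed sign, and a change of direction was not defined for the other values. The broad share with a vector peak stayed above the short share in each alternative that recomputed both. With a minimum of 600 bp the members numbered 607 at 872 genes, 12.7% of boundary peaks, with a median pileup of 35 and 59.1% with a vector peak. With 1000 bp they numbered 80 at 111 genes, 1.67%, with 88.8% having a vector peak, 33.8% at 2 or more genes and a CpG ratio of 0.83. The share at 2 or more genes and the CpG ratio were then below the 40.4% and 0.88 of the short class. With 800 bp they were above, at 42.6% and 0.90. Without chromosomes 8 and 9 there were 134 members at 196 genes, 3.24%, with a median pileup of 33 and 68.7% with a vector peak. A fold enrichment of at least 5 in both tables lowered that share to 57.8%, and coverage of 50% of the member to 41.7%. With protein-coding genes only, 19.9% of broad and 20.3% of short peaks lay at 2 or more genes, so the order of the classes was reversed. The median log2 ratio of the broad class was 0.35 with raw pileup and 0.49 with fold enrichment; for the short class it was 0.035 and 0.24. A short maximum of 250 bp gave 3.97% with a vector peak and a ratio of 0.026, and 400 bp gave 12.6% and 0.42. Vector peaks within 1 kb raised the short share to 11.9%. At a pileup of at least 30 and under 50, an alternative chosen after seeing the data, the short ratio was 0.51. Leaving out the multi-copy members, also chosen afterwards, moved none of 4 values beyond the limits given above. Depth limits single sites: at the 5 members below a ratio of 1 the interval included 1.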
